A study of Homo sapiens with 6 samples.

Results

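FYN, DYRK1A, ANKRD11 and PRRC2C are 4 protein-coding genes whose transcripts carried hnRNP A1 binding sites in every library of a PAR-CLIP experiment, at several places in each gene. They were chosen by these cluster positions, so the presence and the number of their clusters are given as a description, without a test. The members described here are the clusters (called binding sites) that the deposited annotation assigned to these gene names, 54 of 16269 clusters in all, and each of them lay inside its gene on the gene's strand. The human embryonic kidney line HEK293T was transiently transfected with myc-tagged WT hnRNP A1 or with the R75D/R88D double mutant (A1dm), treated with 4-thiouridine, a uridine analog that cross-links to bound protein under ultraviolet light, and the tagged protein was recovered with an antibody against myc. RNA came from 3 protein bands with 2 libraries each, namely monomeric WT protein (A1), a slower WT band (A1-HMW) and monomeric A1dm. The paper describes the slower band as possibly dimeric. The transfected cells also have their own untagged hnRNP A1, and no library from untransfected cells was analyzed here. The libraries held 5805 and 8100 clusters for A1, 671 and 865 for A1-HMW, and 232 and 596 for A1dm. The deposited lists carry no read numbers, so the depth behind a cluster is unknown from them and a missing cluster may be a site with too few reads.

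PAR-CLIP maps where a protein touches RNA, because cross-linked uridine analogs are read as T-to-C changes in the sequenced fragments. HnRNP A1 is an abundant nuclear protein that binds RNA through a pair of RNA recognition motifs, and it acts in splicing, RNA export and translation. The R75D and R88D substitutions break salt bridges between those motifs. FYN is a tyrosine kinase of the Src family. DYRK1A is a protein kinase of serine, threonine and tyrosine residues that is sensitive to gene dosage. ANKRD11 is a chromatin regulator with ankyrin repeats, and PRRC2C is a large cytoplasmic RNA-associated protein with proline-rich and coiled-coil regions.

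By the deposited gene name, FYN, DYRK1A and PRRC2C had clusters in all 6 libraries, and ANKRD11 did not, since A1-HMW replicate 2 and A1dm replicate 1 had 0 clusters under that name. The name is that of the nearest transcription start, which can belong to another gene. A further 18 clusters lay inside the 4 genes on the same strand under other names, 10 of them in ANKRD11, 5 in PRRC2C, 3 in DYRK1A and 0 in FYN. With these, 72 clusters in all, each gene was bound in all 6 libraries. No cluster lay on the opposite strand of the 4 genes (0). By position, 16 of 5404 genes with a cluster had clusters in all 6 libraries (0.296%), which is the property that led to these genes. The other named genes among the 16 were CUL3, EIF4G1, UBE2W, STC2, SUPT16H, IQCB1, KIF14, SNRPD3, TUG1 and UCHL5. Of the 16 genes, 9 held a site shared by all 6 libraries, and FYN, DYRK1A, ANKRD11 and PRRC2C held none. The unnamed gene ENSG00000258677, UBE2W and STC2 held none either, with at most 5 libraries at a site. Of all sites in genes, 0.0943% were shared by all 6 libraries. No site of the 4 genes was found in more than 4 libraries. Their presence in every library thus came from different sites in different libraries. The number of sites was also known when the genes were chosen, with DYRK1A lowest of the 4 at 6 sites, as many as the unnamed gene ENSG00000258677, and CUL3, EIF4G1 and UBE2W next at 3 each.

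Same-strand clusters sharing 1 nucleotide or more were taken as a site, and sites were numbered along each transcript from its 5′ end. In the sequences below, taken from the GRCh37 (hg19) reference on the strand of the RNA, capitals mark the longest uninterrupted run of A or G. The first set shows the 6 sites where A1dm and A1 clusters coincided.
FYN site 2: GAAGAAGAGGAAGGGAAGAAtagc
FYN site 6: AGAAGAAAAGGAAAAGActaggaaaagc
DYRK1A site 2: tGAGGAAAAAGGAAAAGAtgaagt
ANKRD11 site 4: ggtGAAGAAGAGGGAGGGAGAc
ANKRD11 site 9: gatAAGGAAAGGAAGGAGAAGAc
PRRC2C site 8: AGAGGtcgaggccgaggtgaat

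The next 3 sites carried an A1dm cluster but no A1 cluster, and they are shown because they mark where the mutant was found elsewhere in the same gene.
FYN site 14: aaagatGGAAGGtgaaaataaagac
ANKRD11 site 1: ggtggacGGGGcggtgctggt
PRRC2C site 6: AGAAAGAAAAGGAAAAAGAActac

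The sites below were shared by A1 and A1-HMW and had no A1dm cluster.
FYN site 3: aggaatGAGGAAGGAAGAAGGGGt
FYN site 8: AAAAGAGGGAGAGAAGGAGt
DYRK1A site 1: agatGAGGGAGAGAGGGAGGGAGAGt
DYRK1A site 6: gaaagaagaaagatGGAGAGAGGAAGGAc
PRRC2C site 1: ggaaggttAAAGGGGGAAGAGGGAAAAt
PRRC2C site 7: gagctGGAGAAGGAAAGGGAAAAAtt

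Most of these sequences were near-continuous purine stretches, and PRRC2C site 8, FYN site 14 and ANKRD11 site 1 were not. All of these site sequences ended in a pyrimidine, but not every single cluster at them did. The A1dm replicate 2 cluster at FYN site 6 ended in A, and that of A1 replicate 2 at PRRC2C site 1 in G. Of the clusters in the 4 genes by position, 85.1% in A1, 100% in A1-HMW and 90% in A1dm ended in a pyrimidine. So did 89.3% of all A1 clusters, 85.2% of all A1-HMW clusters and 85.5% of all A1dm clusters. Of the 37 sites, 36 had a sequence that occurs once in the reference, and the exception was FYN site 11, whose 17 bases occur 17 times.

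FYN had the most clusters. Under its own name A1 replicate 1 held 8 and A1 replicate 2 held 10, A1-HMW held 1 and 1, and A1dm held 1 and 2. DYRK1A had 3 and 4 clusters in A1, 2 and 1 in A1-HMW and 1 and 1 in A1dm. PRRC2C had 4 and 3 in A1, 2 and 2 in A1-HMW and 1 and 1 in A1dm. ANKRD11 had 3 and 1 in A1, 1 and 0 in A1-HMW and 0 and 1 in A1dm, and by position 6 and 3, 2 and 2, and 1 and 2. In each gene the sum over the A1 libraries was higher than that over the A1-HMW or the A1dm libraries. The A1 lists were also the longest, and the 4 gene names made up 0.310 and 0.222% of the A1 clusters, 0.894 and 0.462% of the A1-HMW clusters and 1.29 and 0.839% of the A1dm clusters. Both A1dm libraries lay above both A1 libraries in this share, which is again a description, since clusters in every band chose the genes.

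**Figure D1:**
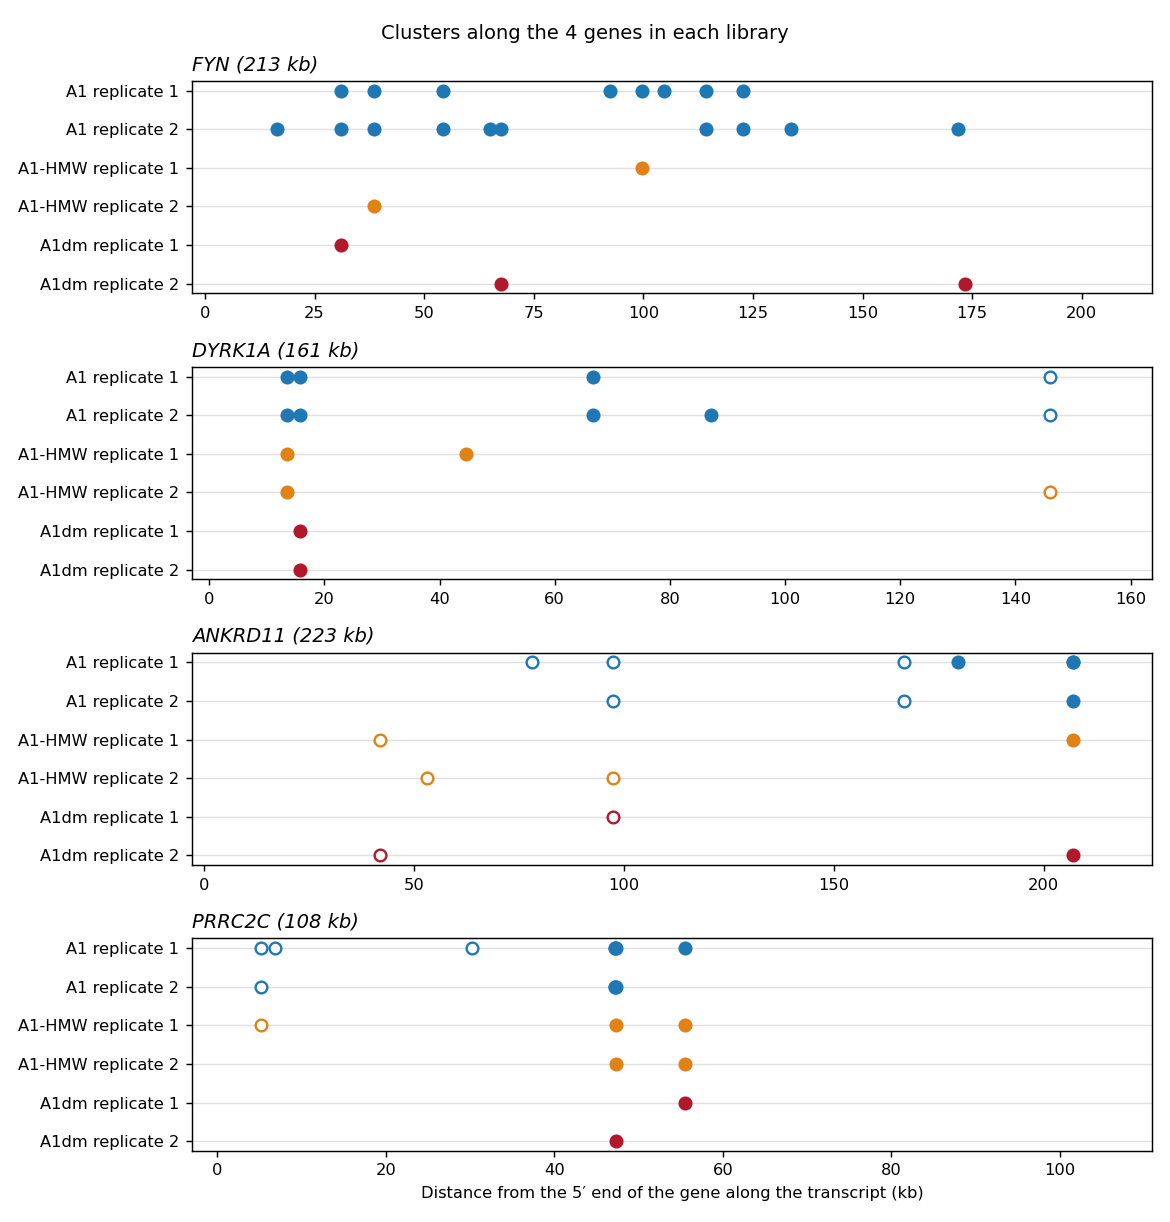
Each point is a cluster, placed by its distance from the 5′ end of the gene (horizontal axis, kb) in each of the 6 libraries (rows), for A1 (blue), A1-HMW (orange) and A1dm (red). Filled points carry the gene's own name in the deposited annotation and open points another name. A1 clusters spread over FYN, from 16.4 to 172 kb, while DYRK1A had A1dm clusters at 15.7 kb alone.

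By position the clusters formed 37 sites, 14 in FYN, 6 in DYRK1A, 9 in ANKRD11 and 8 in PRRC2C, and by gene name 27. A total of 18 sites were seen in 1 library and 19 in 2 or more. Of the 37 sites, 20 were found with A1 alone, 6 with A1 and A1-HMW, 3 with A1 and A1dm, and 3 with all 3 bands. Another 2 were found with A1-HMW alone, 2 with A1dm alone and 1 with A1-HMW and A1dm together. By gene name, 9 of 27 sites held clusters of 2 or more bands (33.3%, 95% Wilson interval 18.6 to 52.2%), and by position 13 of 37 (35.1%). Over all sites in genes this share was 11.6%, and the choice of genes with clusters in every band raises it, so nothing is read from the gap. Such intervals cover counting error only.

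**Figure D2:**
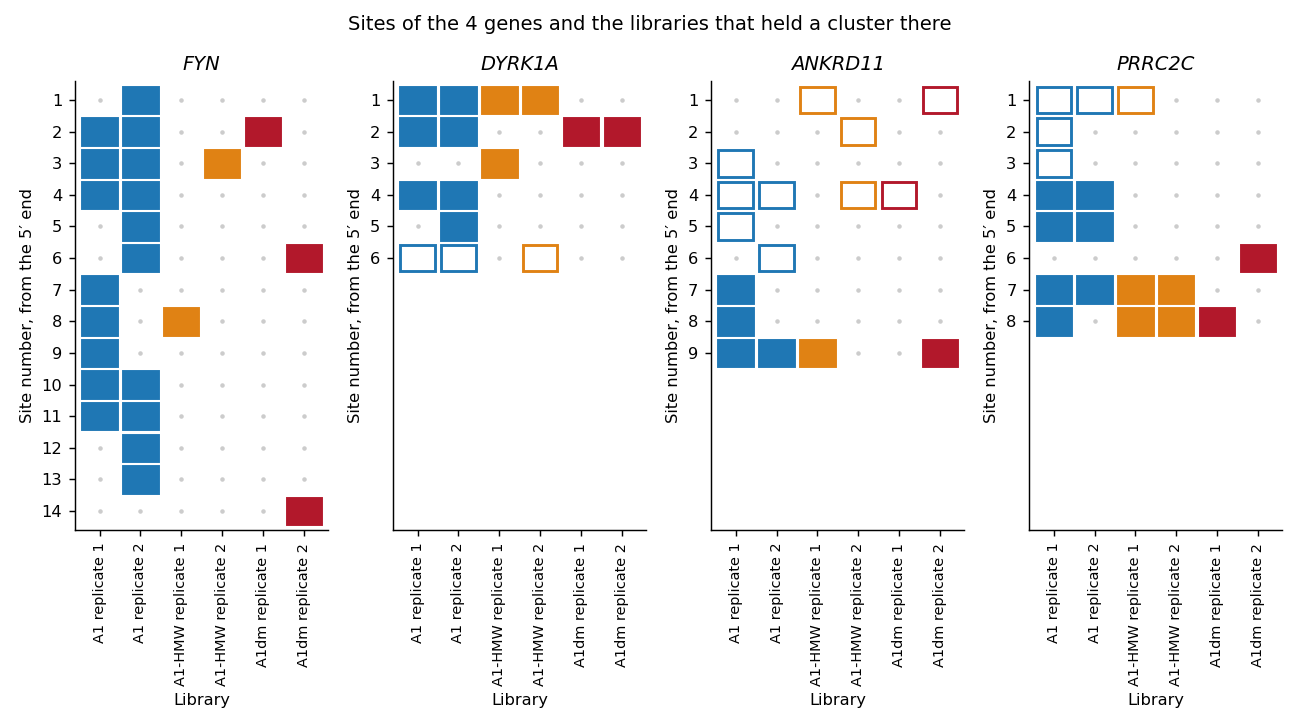
Each row is a site of the named gene, numbered from the 5′ end (vertical axis), and each column a library (horizontal axis). A square marks a cluster at that site, filled where the deposited annotation gives the gene's own name and open where it gives another, in blue for A1, orange for A1-HMW and red for A1dm. No row holds more than 4 squares.

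Recurrence between replicates was counted for each band. By gene name 12 of 24 A1 sites were found in both A1 replicates (50%, Wilson interval 31.4 to 68.6%), against 33.5% of all A1 sites in genes, a value inside that interval. By position it was 15 of 32 sites, 5 of 13 in FYN, 4 of 5 in DYRK1A, 2 of 7 in ANKRD11 and 4 of 7 in PRRC2C. A1-HMW had 3 of 12 sites in both replicates, DYRK1A site 1 and PRRC2C sites 7 and 8, against 11.1% of all A1-HMW sites in genes. A1dm had 1 of 9, DYRK1A site 2, against 4.16% of all A1dm sites in genes. The difference in recurrence between the bands was not tested, and the A1-HMW and A1dm lists were shorter than those of A1. The genes were chosen for clusters in every library, so in both replicates of each band, which can raise recurrence. Nothing is read from the gaps to the shares over all sites.

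FYN, at chr6:111981535-112194655 on the minus strand, was bound in introns of its canonical transcript (ENST00000354650). Of its 14 sites, 12 lay in introns 1 to 3, 6 of them in intron 2, and none overlapped an exon of that transcript. Introns 1 to 3 reach far into the gene, since site 12, in intron 3, lay 134 kb from the start of its 213 kb. The share of the gene or of its purine tracts in these introns was not counted, so no preference is read from the 12 sites. Sites 10 and 14 overlapped exons of other FYN transcripts. Neighboring sites were separated by 1553 to 38029 bases, so FYN had no closely spaced pair. A1 was found in both replicates at sites 2, 3, 4, 10 and 11. Site 4, in intron 2 at chr6:112140368-112140398, had identical ends in both A1 libraries and no cluster of another band.

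A1-HMW held 2 clusters in FYN and A1dm held 3, at different sites. A1-HMW replicate 1 was found at site 8 (chr6:112094928-112094947, intron 3) with the same ends as in A1 replicate 1, and A1-HMW replicate 2 at site 3 (chr6:112156055-112156078, intron 2) with the same ends as in A1 replicate 1. A1dm replicate 1 was found at site 2 (chr6:112163635-112163658, intron 2), where both A1 libraries held the same cluster. There the A1dm cluster began 7 and ended 3 nucleotides downstream of the A1 clusters, so that it ran past the T where they ended. A1dm replicate 2 was found at site 6 (chr6:112127144-112127171, intron 2), also held by A1 replicate 2, with ends shifted by 1 and 2 nucleotides upstream. Its other cluster, at site 14 (chr6:112021223-112021247, in intron 9 and in an exon of another transcript), lay 1554 nucleotides from the nearest A1 cluster. Site 14 had no purine run longer than 6 bases. No FYN site was shared by A1-HMW and A1dm, and none of the A1dm or A1-HMW clusters in FYN recurred in the second library of its band. Over all sites in genes, 11.1% of A1-HMW sites and 4.16% of A1dm sites were found in both replicates. The share of A1dm sites that also held A1-HMW was not counted over all genes. With so few clusters, nothing is read from the lack of overlap in FYN.

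DYRK1A, at chr21:38737875-38898660 on the plus strand, held the one site that recurred in both mutant libraries. All of its 6 sites were intronic in the canonical transcript (ENST00000647188), 3 in intron 1, 2 in intron 2 and 1 in intron 11. Site 1 (chr21:38751353-38751378) held a cluster with identical ends in both A1 and both A1-HMW libraries, and in neither A1dm library. Site 2 (chr21:38753567-38753590) held a cluster in both A1 and both A1dm libraries, and in neither A1-HMW library. The A1dm clusters at site 2 had the same ends in both replicates, and the same as in A1 replicate 1, while the cluster of A1 replicate 2 ended 5 nucleotides earlier. The sites lay 2188 bases apart in the same intron, 13.5 and 15.7 kb from the gene start. Site 1 had a purine run of 21 bases rich in G, and site 2 one of 17 bases rich in A that was followed by tgaagt.

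The remaining DYRK1A sites carried no A1dm cluster. Site 4 (chr21:38804503-38804527, intron 2) was found in both A1 libraries and held a purine run of 23 bases, and no other of the 37 sites had a longer one. Site 5 (chr21:38824948-38824973, intron 2) was found in A1 replicate 2. Site 6 (chr21:38883824-38883852, intron 11), 362 nucleotides from an exon, was found in both A1 libraries and in A1-HMW replicate 2, with the same 3′ end in each. Its clusters carry the name AP001421.1 in the deposited annotation, and are not counted by the gene name. Site 3 (chr21:38782537-38782559, intron 1) was seen in A1-HMW replicate 1 alone, 21944 nucleotides from the nearest A1 cluster, and its purine run was 10 bases long.

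ANKRD11, at chr16:89334038-89556969 on the minus strand, was bound in its introns and in coding exon 9 of the canonical transcript (ENST00000301030). The exon held sites 8 and 9, which were 6 bases apart. Site 9 (chr16:89349882-89349904) carried a cluster with identical ends in both A1 libraries, A1-HMW replicate 1 and A1dm replicate 2, and so was shared by all 3 bands. Site 8 (chr16:89349911-89349930) was seen in A1 replicate 1 alone. Site 7 (chr16:89377282-89377302, intron 3) was also seen in A1 replicate 1 alone. These 3 sites held all 6 clusters named ANKRD11.

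The 6 upstream ANKRD11 sites had other names. Site 4 (chr16:89459499-89459520, intron 2) was found in both A1 libraries, A1-HMW replicate 2 and A1dm replicate 1, and it was again shared by all 3 bands. All 4 clusters had the same 3′ end, and the A1-HMW and A1dm clusters began 1 and 2 nucleotides further downstream. Sites 4 and 9 each held 1 A1-HMW and 1 A1dm library, and the libraries absent from one were present at the other. The choice of genes with clusters in every library can favor such a pattern, so nothing is read from it. Site 1 (chr16:89515196-89515216, intron 1) was found in A1-HMW replicate 1 and A1dm replicate 2 and in no A1 library, 36324 nucleotides from the nearest A1 cluster. With its longest purine run at 4 bases, site 1 had the shortest such run of the 37 sites. Site 2 (chr16:89503835-89503859, intron 1) was seen in A1-HMW replicate 2 alone.

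Sites 5 and 6 of ANKRD11 (chr16:89390180-89390205 and chr16:89390147-89390171, intron 2) were 8 bases apart and nearly alike in sequence, so they are set side by side.
ANKRD11 site 5: GAGGAGGGGAAGGAGAGAGAGctggt
ANKRD11 site 6: GAGGAGGAAGGAGAGAGAGttggac
A1 replicate 1 had a cluster at site 5 and A1 replicate 2 at site 6, so the replicates had clusters in neighboring copies of a similar sequence. Sites 3 to 6, with 7 clusters, also lie inside ENSG00000288715, a protein-coding gene model that overlaps ANKRD11 on the same strand, and the RNA bound there may be either transcript.

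PRRC2C, at chr1:171454669-171562650 on the plus strand, had most of its clusters in coding exons. In its canonical transcript (ENST00000647382), 6 of the 8 sites and 14 of the 18 clusters lay in coding exons 5, 12 and 16, against 5 of 16 clusters in ANKRD11, 0 of 15 in DYRK1A and 0 of 23 in FYN. Over all clusters in protein-coding genes, 6.18% overlapped a coding exon of a canonical transcript, with 5.46% in A1, 6.79% in A1-HMW and 16.5% in A1dm. In PRRC2C it was 8 of 11 A1 clusters, 4 of 5 A1-HMW clusters and 2 of 2 A1dm clusters, 9 of these 14 in exon 12 alone. Over the 4 genes 8 sites were in coding exons, 26 in introns, and 3 in introns that are exons of another transcript.

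Exon 12 of PRRC2C held 4 sites within 172 bases (chr1:171501849-171502020). Sites 4 and 5 had clusters in both A1 libraries and in no other. Site 7 (chr1:171501995-171502020) had clusters in both A1 and both A1-HMW libraries. The A1-HMW clusters were identical to each other, as were the A1 clusters, and they were offset, the A1-HMW clusters beginning 4 nucleotides and ending 1 nucleotide upstream. Site 6 (chr1:171501942-171501965) had a cluster in A1dm replicate 2 alone, 27 bases downstream of site 5 and 29 bases upstream of site 7. This single A1dm cluster lay in the gap between A1 sites of the same exon. It held a purine run of 20 bases, longer than those of sites 4, 5 and 7, which were of 17, 16 and 19 bases. Neither A1 library had a cluster there, as was common for long tracts. Over the 4 genes A1 clusters covered 13 of 49 tracts of 20 to 29 bases. A tract of 22 bases just upstream of site 4 held no cluster of any band.

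**Figure D3:**
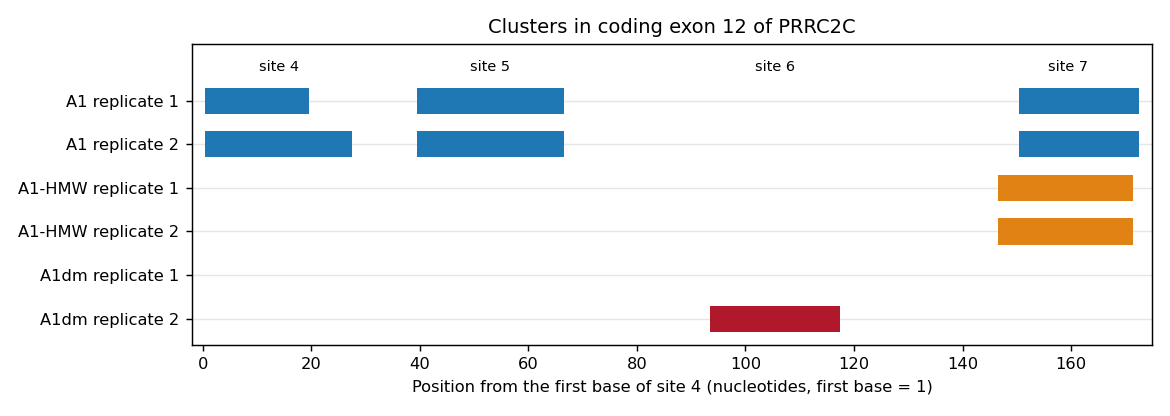
Each bar is a cluster in coding exon 12 of PRRC2C, drawn to scale from the first base of site 4 (horizontal axis, nucleotides) for each library (rows), in blue for A1, orange for A1-HMW and red for A1dm. The A1dm cluster at site 6 overlaps no other bar, and the A1-HMW bars at site 7 start 4 nucleotides before the A1 bars.

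PRRC2C site 8 (chr1:171510167-171510188, coding exon 16) was shared by all 3 bands. It was found in A1 replicate 1, both A1-HMW libraries and A1dm replicate 1, with the same 5′ end in all 4 clusters. The clusters of A1-HMW replicate 1 and A1dm replicate 1 ended 4 nucleotides before the others. Its longest purine run was 5 bases, so the site of this gene shared by all bands was not a long purine tract. Site 1 (chr1:171459918-171459945, intron 1) was found in both A1 libraries and in A1-HMW replicate 1, and the cluster of A1 replicate 2 ended 12 nucleotides before the other clusters. Sites 2 (intron 1) and 3 (coding exon 5) were seen in A1 replicate 1 alone. Clusters at sites 1, 2 and 3 carry the names RN7SL425P and RNU6-773P, and their sequences occur once in the reference.

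The mutant was compared with A1 site by site. By gene name 6 of 8 A1dm clusters overlapped an A1 cluster (75.0%, Wilson interval 40.9 to 92.9%), and 4 of the 8 lay at a site of both A1 replicates. By position it was 7 of 10 (70%). Over all A1dm clusters in genes this share was 52.4% (59.8% in replicate 1 and 49.2% in replicate 2), inside the interval of the members. With 8 clusters that interval is wide and takes them as independent, so nothing is read from the comparison. The genes were also chosen for clusters of both bands at several sites, which can raise the overlap. Of the 6 shared clusters, 3 had the same ends as an A1 cluster, those at DYRK1A site 2 and ANKRD11 site 9. The other 3 were shifted or shortened by 1 to 7 nucleotides. All 3 named clusters of A1dm replicate 1 were at A1 sites, and of the 5 in replicate 2 there were 3. The clusters away from A1 sites, at FYN site 14, ANKRD11 site 1 and PRRC2C site 6, all came from A1dm replicate 2, the larger of the mutant lists.

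Of the A1-HMW clusters, 9 of 10 overlapped an A1 cluster by gene name (90%, Wilson interval 59.6 to 98.2%), and 12 of 15 by position (80.0%). The share over all A1-HMW clusters in genes was 73.4% (72.9% in replicate 1 and 73.9% in replicate 2), again inside the interval, and nothing is read from that. A total of 6 A1-HMW clusters had the same ends as an A1 cluster. Of the 9 sites with an A1dm cluster, 4 also held A1-HMW, namely ANKRD11 sites 1, 4 and 9 and PRRC2C site 8, and none of those was in FYN or DYRK1A. The same share over all A1dm sites in genes was not counted. Clusters in every band chose the genes, so nothing is read from this overlap. Seen from A1, 5 of 24 sites by gene name held an A1dm cluster (20.8%) and 6 held an A1-HMW cluster (25.0%). Over all A1 sites in genes these shares were 4.08 and 9.97%, and nothing is read from the gap because the genes were chosen for clusters in every band.

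The base sequence was not used to choose the genes. Runs of 12 or more purines were present in 33 of 36 A1 clusters by gene name (91.7%), 7 of 10 A1-HMW clusters (70%) and 6 of 8 A1dm clusters (75.0%). Over all clusters of the bands these shares were 97.3, 85.9 and 60.5%. Of the 32 sites with an A1 cluster, 30 held such a run, as did 6 of the 9 sites with an A1dm cluster. A and G made up 90.2 and 91.0% of the bases in the A1 clusters of the 4 gene names, 86.7 and 86.6% in A1-HMW and 84.5 and 89.3% in A1dm. Both A1dm libraries lay below both A1 libraries, and the mean was 86.9% ± 3.38 for A1dm against 90.6% ± 0.517 for A1 (SD, n = 2), a difference of -3.72 points. An exact two-sided permutation test gave p = 0.333, the smallest that 2 libraries against 2 allow. The difference was -1.33 points without A1dm replicate 1 and -6.10 points without A1dm replicate 2, which hold 3 and 5 of the clusters. Over all clusters the shares were 90.7 and 90.7% in A1, 87.4 and 88.2% in A1-HMW and 81.6 and 78.5% in A1dm, a difference of -10.7 points between A1dm and A1, also with p = 0.333 in the exact permutation test. Both A1dm libraries thus had a higher share of A and G in the 4 genes than over all their clusters. Nothing is read from this, since it rests on those 3 and 5 clusters. Of these 8 clusters, 6 overlapped an A1 cluster, and the genes were chosen for clusters of both bands.

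The clusters were further searched for TAG, the core of the motif known for hnRNP A1, and for the purine word GAGGAA, on the strand of the RNA. TAG was present in 1 of 36 A1 clusters, 0 of 10 A1-HMW clusters and 2 of 8 A1dm clusters by gene name. The shares over all clusters were 8.94, 9.39 and 13.6%. The A1dm clusters with TAG were those at FYN sites 2 and 6. At site 2 the A1 clusters ended before TAG was complete, and at site 6 the A1 cluster held it as well. GAGGAA was present in 11 of 36, 2 of 10 and 2 of 8 clusters, and over all clusters in 33.5, 32.5 and 21.2%.

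The 4 genes offer many more purine tracts than were bound. On their strand they hold 573 tracts of at least 12 A or G, and 36 of these overlapped a cluster of any library (6.28%), 34 overlapped an A1 cluster (5.93%), and 25 overlapped a cluster of the gene's own name (4.36%). In FYN 14 of 229 tracts were bound, in DYRK1A 6 of 93, in ANKRD11 9 of 179 and in PRRC2C 7 of 72. Bound tracts had a median length of 19 bases and unbound tracts of 13. A1 clusters covered 4 of 351 tracts of 12 to 14 bases (1.14%), 17 of 161 of 15 to 19 bases (10.6%) and 13 of 49 of 20 to 29 bases (26.5%, Wilson interval 16.2 to 40.3%). A total of 12 tracts had 30 bases or more, and 0 were bound by A1 (interval 0 to 24.2%). In protein-coding genes with an A1 cluster, 1.57% of all tracts of at least 12 bases carried one, and by length the shares were 0.135, 3.06, 6.30 and 0.325%. The rise up to 29 bases and the fall beyond were thus seen over all these genes too. A purine tract holds no T, whereas every A1 cluster in the 4 genes contained one, and those clusters were 12 to 31 bases long. How far this shapes the profile by length was not tested. Nothing is read from the higher level in the 4 genes, which were chosen for many clusters.

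**Figure D4:**
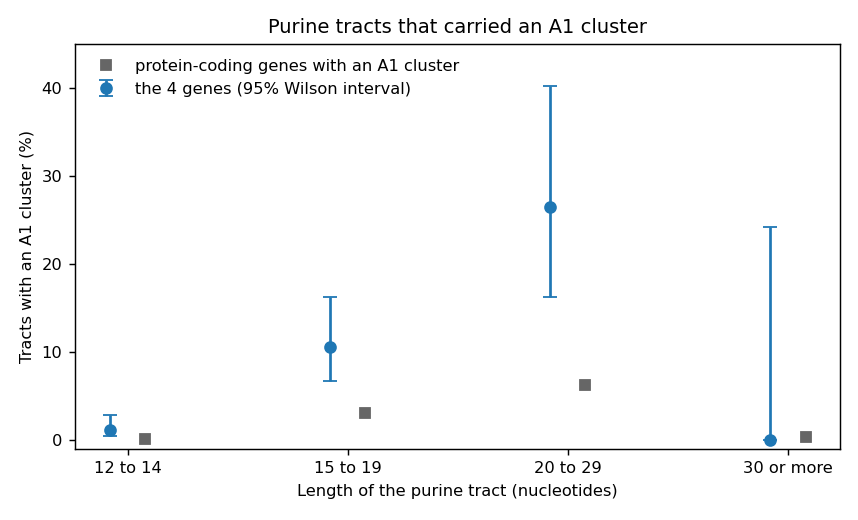
Share of purine tracts that carried an A1 cluster (vertical axis, percent) by tract length (horizontal axis, nucleotides), for the 4 genes (blue points, bars are 95% Wilson intervals) and for all protein-coding genes with an A1 cluster (gray squares). The share in the 4 genes reaches 26.5% at 20 to 29 bases and is 0 at 30 or more.

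Members of the same protein families are given for comparison. Of 28 related genes listed by family, 12 had a cluster and 0 had clusters in all 6 libraries. Of all genes with a cluster, 0.296% had clusters in all 6, and the share of annotated genes with any cluster was not counted. The members were chosen for this property, so nothing is read from the contrast. Among 8 other Src family kinases, YES1 alone had a cluster, 1 in A1dm replicate 2. Of 11 DYRK, CLK and HIPK kinases 7 had clusters, among them CLK2, a kinase of splicing factors, with 2 and 2 in A1 and 1 and 1 in A1-HMW, and HIPK2 with 2 and 2 in A1 and 1 in A1-HMW replicate 1. CLK3 had 3 and 2 in A1, and DYRK4 had 1 and 2. Of 7 genes of ankyrin repeat proteins 3 had clusters, and ANKRD17 came closest to the members, with 4 and 2 in A1, 1 and 1 in A1-HMW, and 1 in A1dm replicate 2. PRRC2B had 1 and 2 clusters in A1, and PRRC2A had 0. RNA levels in these cells were not analyzed here, so a gene without clusters may not have been expressed.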

How the data were processed

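Reads had been trimmed with BBduk, cleared of ribosomal RNA and aligned with STAR by the authors, whose methods name wavClusteR, PARalyzer and HOMER. The submitters' processing notes name Bowtie and hg19. Per the file headers, the deposited lists were wavClusteR clusters of each library, annotated by HOMER with an Ensembl gene set. Versions are not given in the sources used here. The deposited score was 0 in every line, so the lists hold coordinates without counts. The study's supplementary table of clusters made with PARalyzer, which gives reads per cluster, was not used here. The start in the cluster's identifier, 1 nucleotide before the listed start, was used. With it all 54 clusters contain a T, and as listed 5 do not. Clusters were placed with Python 3.11.15 on GENCODE v44lift37 and its canonical transcripts, and sequences came from GRCh37, the same build as hg19. All counts are overlaps on the same strand of at least 1 nucleotide. The overlap code was tested on simulated data. Libraries were grouped by their titles, and the paper calls the replicates independent experiments. The 4 genes, the lists of relatives and the tests were chosen with earlier results of these data known. Clusters inside the genes under other names, by a rule added after the lists were seen, are given beside the main counts. Named were the 4 genes, their sites, relatives with clusters in both replicates of a band and, by name, other genes in all 6 libraries. YES1, PRRC2A and sites of a lone A1 library were named after their values were seen.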

Additional observations from a re-analysis of the deposited data

How the results depend on the processing

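Calling sites the same at an overlap of 50% of the shorter cluster changed none of the counts, and taking clusters within 50 nucleotides as a site gave 23 sites in place of 27, 9 of them in 2 or more bands as before, and put 7 of 8 A1dm clusters (87.5%) at an A1 site. The added cluster was that at PRRC2C site 6. When single libraries were dropped, the share of A1dm clusters at an A1 site ranged from 60% without A1dm replicate 1 to 100% without A1dm replicate 2. That of A1-HMW clusters ranged from 60% without A1 replicate 1 to 100% without A1-HMW replicate 1. The share of purine tracts with a cluster was 2.22% for tracts of at least 10 bases and 10.8% for tracts of at least 15, against 4.36% at 12, since shorter tracts are more numerous and less often bound. With the replicate number as a block, the A1dm minus A1 difference in A and G was again -3.72 points (p = 0.5, exact sign-flip test, the smallest that 2 pairs allow). Whether the numbers pair the libraries could not be checked with 2 pairs and no reads. The deposited lists hold no reads, so sites were not ranked, and the number of clusters limits every share above.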
